A study of Mus musculus with 12 samples.

Results

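Interferon-stimulated genes are the genes that cells switch on when they sense interferon, and 37 of them, all members of the type I or interferon-gamma response, were followed by symbol across mouse kidney libraries. Of these, 35 had a row among the 21899 genes of the deposited table, and all 35 passed the filter on low values (0.3 FPKM or more in 3 or more libraries), as did 12897 genes in all. They also passed it with the db/m-GABP-OE libraries set aside. Mx1 and Mx2 were not analysed here. The libraries fall into 4 groups of 3. The db/m-GABP-OE group is lean, heterozygous db/m mice in which GABP, a transcription factor with a DNA-binding alpha subunit and a beta subunit, was to be overexpressed. The db/db-GABP-KD group is db/db mice, obese and diabetic for want of a leptin receptor that signals, in which GABP was to be knocked down. The db/db-veh and db/m-veh groups are the same 2 genotypes given vehicle. The groups are called GABP-OE, GABP-KD, db/db-veh and db/m-veh, and the sources used here state neither how GABP was raised or lowered, nor in which cells, nor the age of the mice. Kidneys of 6 mice per group were used, 3 tissues to an extraction, so the 3 libraries of a group may share animals or be repeats of a pool, and p-values may then measure technical spread only.

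Type I interferons act through the receptor pair Ifnar1 and Ifnar2 and a complex that includes STAT2 and IRF9, which binds the interferon-stimulated response element in the promoters of its targets. Interferon-gamma acts through Ifngr1 and Ifngr2, and its signal reaches gamma-activated sites in the promoters of its targets. The targets block viral translation and budding, attack the vacuoles of intracellular microbes, load antigen onto class I molecules and adjust the signal itself. In kidney, tubule, endothelial and resident immune cells can all respond, and macrophages are known for high levels of many of these transcripts.

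The values are FPKM, fragments scaled for exon length and library size, at a depth of 6.78 to 9.70 M (mega) fragments per library. Between 47.9% (GABP-KD 1) and 86.0% (db/db-veh 2) of them fell on mitochondrially encoded genes, which left 1.08 to 4.39 M for nuclear genes. As deposited, all 12897 genes together had a median log2 fold change of 0.38 in GABP-OE against db/m-veh, 0.42 in GABP-KD against db/db-veh and -0.24 between the vehicle groups (db/db over db/m). Counts and most fold changes are therefore also given after median of ratios scaling, which divides a library by the median ratio of 5884 well-measured genes to their average and brings these shifts to 0.04, 0.00 and 0.01. GABP-KD 1 was the library least like its own group (mean r = 0.876 over genes, a description). Gabpa, the DNA-binding subunit of GABP, had 3.45, 3.35 and 3.71 FPKM in GABP-OE, 6.62, 2.66 and 3.40 in GABP-KD, 2.20, 2.17 and 1.63 in db/db-veh, and 1.79, 2.32 and 2.54 in db/m-veh. Values in the libraries labelled GABP-KD were not below those of db/db-veh (log2 fold change 0.84, limma adjusted p = 0.34, and 0.31 with adjusted p = 0.90 after scaling). GABP-KD therefore stands for the libraries labelled so, whatever their GABP, and with GABP-OE the higher Gabpa did not pass the test (0.57, limma adjusted p = 0.43, and 0.19 with adjusted p = 1.00 after scaling).

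Promoters of 300 bases (250 before to 50 after the RefSeq start, build GRCm38.p6) were matched for 28 of the 35 genes. The interferon-stimulated response element, searched on both strands as a pair of GAAA blocks with any 2 bases between them, was found in 14 of these 28 promoters (50%) and in 3.99% of the promoters of 27025 genes. The gamma-activated site, TTCNNNGAA, was found in 9 of the 28 (32.1%) and in 9.55% of all. The core bound by ETS factors such as GABP, CCGGAAG, was found in 3 of the 28 (10.7%), those of Ifih1, Ifit2 and Rsad2, and in 9.93% of all. All were searched on both strands, and the first 2 motifs can overlap, as they do in Bst2. Stretches of 70 bases are printed for 3 of the genes that passed the test in GABP-OE (Isg15, Gbp3 and Gbp7), for Ifit1, which came close, for Gbp2 and Bst2, which had large fold changes in the libraries labelled GABP-KD, and for Irgm1, which holds the same element but had a fold change near the all-gene median in GABP-OE. Capitals mark each match to the response element, read as paired GAAA blocks, or as paired TTTC blocks where the element lies on the other strand, and every line runs 5′ to 3′ on the strand of the gene. A match is a description of the letters and was not tested as a binding site.
Isg15: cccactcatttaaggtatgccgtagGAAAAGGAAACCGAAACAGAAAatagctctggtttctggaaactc
Gbp3: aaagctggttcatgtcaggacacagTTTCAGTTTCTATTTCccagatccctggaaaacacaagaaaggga
Gbp7: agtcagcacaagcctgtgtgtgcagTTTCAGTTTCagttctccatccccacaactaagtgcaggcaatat
Ifit1: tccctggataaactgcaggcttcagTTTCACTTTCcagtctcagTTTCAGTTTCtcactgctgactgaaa
Gbp2: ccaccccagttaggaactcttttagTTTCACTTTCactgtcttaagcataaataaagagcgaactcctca
Bst2: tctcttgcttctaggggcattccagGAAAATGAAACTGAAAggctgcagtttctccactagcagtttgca
Irgm1: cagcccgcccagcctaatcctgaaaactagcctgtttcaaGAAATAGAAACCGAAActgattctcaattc

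The Isg15 stretch lies at chr4:156200852-156200921 on the minus strand and holds 3 overlapping matches in a row. The Gbp3 stretch (chr3:142559974-142560043, plus strand) and the Bst2 stretch (chr8:71537558-71537627, minus strand) hold 2 overlapping matches each, as does the Irgm1 stretch (chr11:48871421-48871490, minus strand). The Ifit1 stretch (chr19:34640760-34640829, plus strand) holds 2 separate ones. The Gbp7 stretch (chr3:142530258-142530327, plus strand) and the Gbp2 stretch (chr3:142620579-142620648, plus strand) hold 1 each. The promoters of Gbp7 and Bst2 also hold gamma-activated sites, 2 in Gbp7, upstream of the stretch printed, and 1 in Bst2.

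As a set, the 35 genes were weakly expressed in kidney. Their mean over the 12 libraries had a median of 1.88 FPKM and ran from 0.443 FPKM for Dhx58 to 11.9 FPKM for Bst2, with 6 genes under 1 FPKM and 4 at 5 FPKM or more. Their summed level was 152 ± 18.2 FPKM (SD, n = 3) in GABP-OE, 103 ± 29.4 in GABP-KD, 49.6 ± 13.5 in db/db-veh and 62.9 ± 6.19 in db/m-veh. After median of ratios the sums were 116 ± 11.4, 89.9 ± 9.87, 67.1 ± 14.1 and 66.5 ± 13.5 in the same group order. The group mean was highest in GABP-OE for 29 of the 35 genes and in GABP-KD for the other 6, and after scaling for 24 and 9, with 2 in db/db-veh and 0 in db/m-veh.

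**Figure D1:**
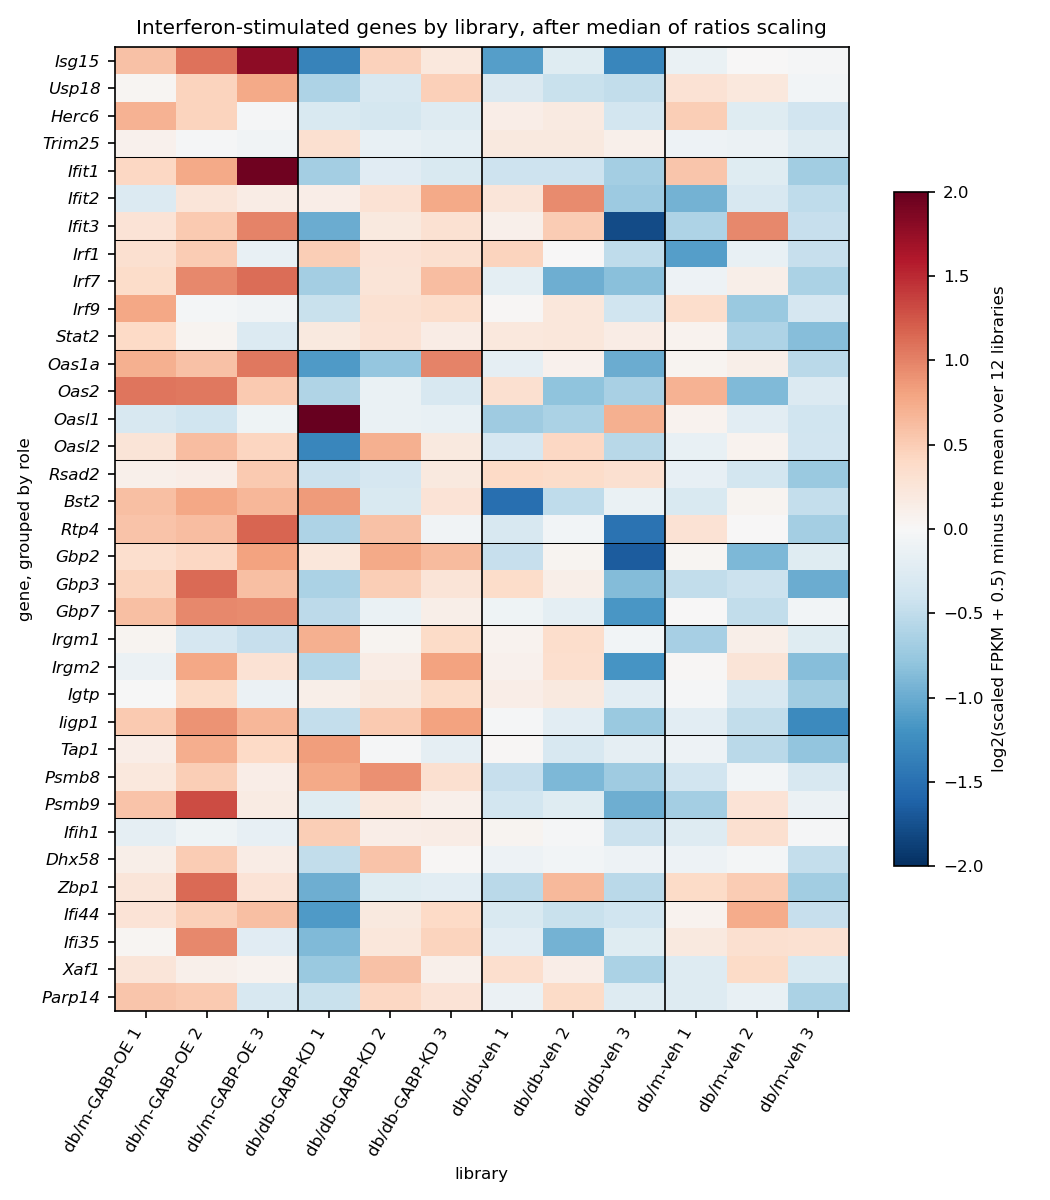
Level of each of the 35 interferon-stimulated genes (rows, grouped by role) in each of the 12 libraries (columns), as log2(scaled FPKM + 0.5) minus the mean of the gene over the 12 libraries, with colours ending at -2 and 2. The GABP-OE columns are red for most genes, and GABP-KD 1 mixes red rows (Oasl1, Bst2, Tap1) with blue ones (Isg15, Oasl2, Xaf1).

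With GABP-OE most of the interferon-stimulated genes had higher values, and 4 passed the test. These effector genes, the guanylate-binding proteins Gbp3 and Gbp7, the immunity-related GTPase Iigp1 and the ubiquitin-like modifier Isg15, were higher in GABP-OE than in db/m-veh (limma, adjusted p under 0.05 over all 12897 genes), and 0 were lower. That is 11.4% of the 35 genes, against 1.85% of all genes tested that were called higher and 0.0543% that were called lower. All 35 fold changes were above 0 as deposited, with a median of 0.94 where that of all genes was 0.38, and 32 of the 35 lay above the all-gene median. Libraries of the 2 groups did not overlap for 28 of the 35 genes, where the share of all genes was 30.4%. After median of ratios 0 of the 35 were called by limma or by voom (0.209% of all genes were called by limma), 15 had an unadjusted p under 0.05 (971 of all 12897 genes did, in either direction), the median was 0.60 against 0.04 for all genes, 31 lay above the all-gene median, and 17 did not overlap against 9.72% of all genes. The calls also depended on single libraries. There were 0 calls after leaving out library 2 or 3 of either group, and 12 without GABP-KD 1, which enters only the shared estimate of spread. These are whole-tissue libraries, in which more cells of a type and more RNA per cell cannot be told apart.

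Among the modifiers, Isg15 (ENSMUSG00000035692, chr4:156199424-156200818 in GRCm38, minus strand) encodes a small ubiquitin-like protein that is joined to other proteins during infection. It had 5.99, 9.09 and 15.4 FPKM in GABP-OE, against 2.64, 2.50 and 3.20 FPKM in db/m-veh. Every GABP-OE library was above every db/m-veh library, and the spread was widest in GABP-OE. Isg15 rose by 1.61 on the log2(FPKM + 0.5) scale (SE 0.38, 95% interval 0.80 to 2.41, limma adjusted p = 0.039), a ratio of means of 3.65, and the change was 1.20 (adjusted p = 0.44) after median of ratios. Usp18, the protease that removes ISG15 from its targets, Herc6, the main ISG15 ligase of the mouse, and Trim25, a ubiquitin ligase that acts on the RNA sensor RIG-I, had fold changes of 0.54 to 0.67, or 0.16 to 0.41 after scaling, and did not pass.

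The guanylate-binding proteins, GTPases that gather on the vacuoles of intracellular microbes, were the role group with the highest median (1.35 over 3 genes, and 1.02 after scaling). Gbp3 (ENSMUSG00000028268, chr3:142560026-142573209, plus strand) had 4.82, 8.43 and 5.74 FPKM in GABP-OE, against 1.71, 1.53 and 1.18 FPKM in db/m-veh. Its neighbour Gbp7 (ENSMUSG00000040253, chr3:142530342-142550149, plus strand) had 1.99, 2.83 and 2.86 FPKM in GABP-OE, against 0.857, 0.392 and 0.896 FPKM in db/m-veh. Groups were apart for both genes, on either scale. Gbp3 rose by 1.77 (SE 0.36, 95% interval 1.01 to 2.52, limma adjusted p = 0.017) and Gbp7 by 1.35 (SE 0.30, 95% interval 0.70 to 1.99, limma adjusted p = 0.032), with 1.37 (adjusted p = 0.20) and 1.02 (adjusted p = 0.25) after median of ratios. Gbp2 had 2.55, 2.83 and 3.98 FPKM in GABP-OE, against 1.52, 0.467 and 1.28 FPKM in db/m-veh. Its libraries did not overlap either, but its change of 1.24, or 0.89 after scaling, did not pass (limma adjusted p = 0.096 as deposited). Guanylate-binding proteins are near relatives that lie side by side, so reads may be split among them. Exons of Gbp7 also overlap a same-strand gene over 637 bases.

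The immunity-related GTPases, which act on the same vacuoles, were uneven. Iigp1 (ENSMUSG00000054072) had 3.86, 5.38 and 4.56 FPKM in GABP-OE, against 1.61, 1.03 and 0.570 FPKM in db/m-veh. All 3 GABP-OE values were more than 2 FPKM above the highest db/m-veh value. Iigp1 rose by 1.74 (SE 0.34, 95% interval 1.02 to 2.46, limma adjusted p = 0.013), a ratio of means of 4.29, and had a change of 1.35 (adjusted p = 0.20) after median of ratios. Igtp had 5.91, 8.21 and 5.76 FPKM in GABP-OE, against 4.54, 3.05 and 2.97 FPKM in db/m-veh, a change of 0.83 (limma adjusted p = 0.26), or 0.43 after scaling. Irgm2 was at 0.87, or 0.50 after scaling, and Igtp and Irgm2 share 162 bases of exon on the same strand, so they are not fully separate measurements. Irgm1, a regulator of the other members of the family, was at 0.39, close to the all-gene median, and at 0.02 after scaling.

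IFIT proteins bind viral RNA and block its translation. Ifit1 had 3.17, 4.35 and 11.0 FPKM in GABP-OE, against 2.76, 1.16 and 0.968 FPKM in db/m-veh. The groups did not overlap as deposited, but they did after scaling, where db/m-veh 1 was above GABP-OE 1. GABP-OE 3 held most of the difference. The change of 1.56 (SE 0.40) missed the threshold narrowly (limma adjusted p = 0.056), passed it in 3 of 36 alternative settings, and was 1.17 (adjusted p = 0.34) after median of ratios. Ifit3, the most abundant of the 3 in every group, had 10.2, 12.7 and 18.2 FPKM in GABP-OE, against 4.07, 11.0 and 5.09 FPKM in db/m-veh. Its groups overlapped, because db/m-veh 2 was above GABP-OE 1, and its change of 1.06, or 0.63 after scaling, did not pass (limma adjusted p = 0.32 as deposited). Ifit2 had 2.09, 3.33 and 3.17 FPKM in GABP-OE, against 0.835, 1.31 and 1.45 FPKM in db/m-veh (0.98, limma adjusted p = 0.18, and 0.63 after scaling).

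**Figure D2:**
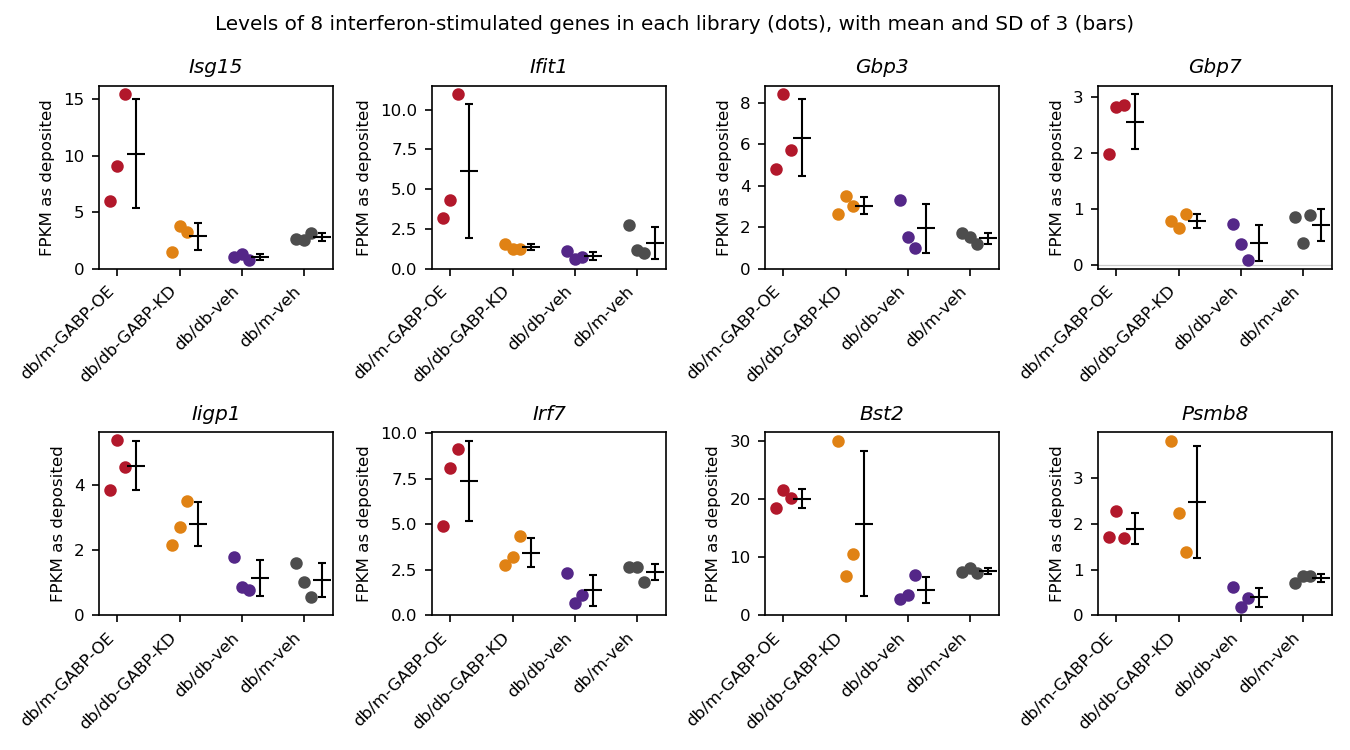
FPKM as deposited of 8 interferon-stimulated genes in each library (dots), with the mean and SD of the 3 libraries of a group (bars), for GABP-OE, GABP-KD, db/db-veh and db/m-veh from left to right. Isg15, Ifit1, Gbp3, Gbp7 and Iigp1 have their highest dots in GABP-OE, and the top dots of Bst2 (30.0 FPKM) and Psmb8 (3.82 FPKM) belong to GABP-KD 1.

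The 4 signalling factors were above the all-gene median without passing. Irf7, which amplifies the interferon-alpha response, had 4.93, 8.08 and 9.16 FPKM in GABP-OE, against 2.64, 2.64 and 1.84 FPKM in db/m-veh. Every GABP-OE library was higher, and the change of 1.43 (SE 0.37) missed the threshold as narrowly as Ifit1 (limma adjusted p = 0.056), and was 1.02 (adjusted p = 0.40) after scaling. Stat2 and Irf9 encode parts of the complex that binds the response element. Stat2 had 9.03, 7.22 and 5.70 FPKM in GABP-OE, against 5.44, 2.70 and 2.95 FPKM in db/m-veh (0.93, limma adjusted p = 0.25, and 0.53 after scaling). Irf9 had 8.12, 4.46 and 4.45 FPKM in GABP-OE, against 4.57, 1.58 and 2.92 FPKM in db/m-veh (0.85, limma adjusted p = 0.29, and 0.46 after scaling), and its groups overlapped. Irf1, a factor that interferon-gamma induces, was at 1.18 (limma adjusted p = 0.15), or 0.80 after scaling.

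Membrane and RNA-directed effectors also had values above the all-gene median, except for Oasl1, and none passed. Bst2, or tetherin, which holds budding virus on the cell surface, had 18.4, 21.6 and 20.2 FPKM in GABP-OE, against 7.39, 8.13 and 7.23 FPKM in db/m-veh. These are 2 tight, separate clusters with a ratio of means of 2.65, or 1.93 after scaling. The change of 1.35 (SE 0.47), or 0.92 after scaling, still did not pass (limma adjusted p = 0.17 as deposited), with 1 spread per gene shared by all 4 groups and Bst2 ranging from 6.71 to 30.0 FPKM within GABP-KD. Without GABP-KD 1 Bst2 was among the 12 genes called. Rsad2, or viperin, an enzyme that makes a chain-ending nucleotide, had 2.40, 2.57 and 3.63 FPKM in GABP-OE, against 1.46, 1.02 and 0.914 FPKM in db/m-veh (1.04, limma adjusted p = 0.095, and 0.68 after scaling). Rtp4, a receptor transporter protein, was at 1.31 (limma adjusted p = 0.080), or 0.91 after scaling. Of the oligoadenylate synthetase family, whose active members switch on RNase L, Oasl2 had 2.05, 2.89 and 2.52 FPKM in GABP-OE, against 1.08, 1.13 and 0.924 FPKM in db/m-veh (0.94, limma adjusted p = 0.20, and 0.59 after scaling). Oas1a and Oas2 were at 1.26 and 1.32 (limma adjusted p = 0.13 and 0.079), or 0.91 and 1.03 after scaling. Oasl1, which in the mouse holds back IRF7 translation, had 0.594, 0.553 and 0.848 FPKM in GABP-OE, against 0.755, 0.450 and 0.452 FPKM in db/m-veh, with overlapping groups and a change of 0.15, or -0.08 after scaling.

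Antigen-processing genes were separate between the groups without passing the test. Tap1, a subunit of the transporter that carries peptides to class I molecules, had 2.85, 4.78 and 3.74 FPKM in GABP-OE, against 1.82, 1.02 and 1.04 FPKM in db/m-veh (1.27, limma adjusted p = 0.16, and 0.89 after scaling). Psmb8, a catalytic subunit of the immunoproteasome, had 1.70, 2.29 and 1.69 FPKM in GABP-OE, against 0.712, 0.868 and 0.855 FPKM in db/m-veh (0.86, limma adjusted p = 0.20, and 0.53 after scaling), and its partner Psmb9 was at 1.21 (limma adjusted p = 0.075), or 0.85 after scaling. After scaling Tap1 and Psmb8 were still separate and Psmb9 was not. Tap1 and Psmb9 are divergent neighbours that share 212 bases of exon on opposite strands, which reads counted without strand cannot tell apart. Ifih1, or MDA5, the sensor of long double-stranded RNA, had 0.746, 0.871 and 0.798 FPKM in GABP-OE, against 0.522, 0.863 and 0.774 FPKM in db/m-veh. Its groups overlapped, with a change of 0.11, below the all-gene median, and -0.16 after scaling. The other sensors, Dhx58 and Zbp1, were at 0.72 and 0.79, or 0.47 and 0.48 after scaling. Of the remaining induced genes Parp14, an ADP-ribosyltransferase, was at 0.94 (limma adjusted p = 0.11), Ifi44 at 0.70, Xaf1 at 0.55 and Ifi35 at 0.37. After scaling these 4 were at 0.60, 0.33, 0.20 and -0.01.

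**Figure D3:**
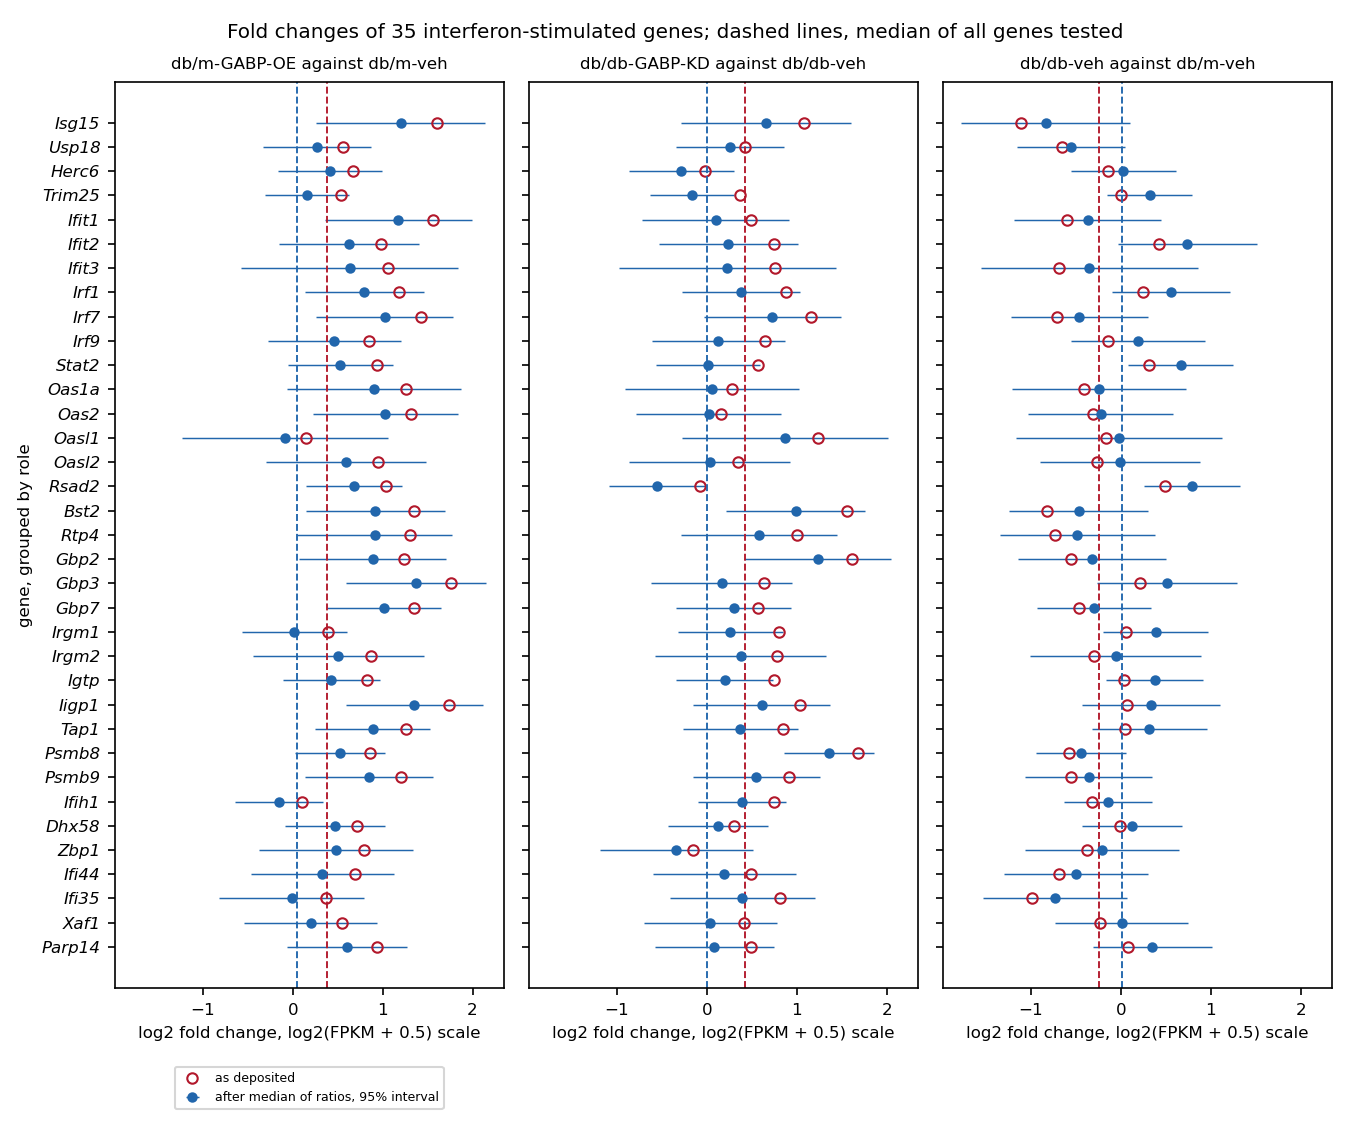
Log2 fold change of each of the 35 genes, grouped by role, in the 3 comparisons of 2 groups, as deposited (open red circles) and after median of ratios (blue dots with 95% intervals), with dashed lines at the median of all genes tested. In the GABP-OE panel 32 of the 35 open circles lie right of the red line at 0.38, and in the db/db-veh panel they lie on both sides of the line at -0.24.

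In the diabetic background the libraries labelled GABP-KD also stood higher than db/db-veh for most of the genes, but 0 of the 35 passed the test. Limma called 0 genes of all 12897 there (0% called, 1839 at an unadjusted p under 0.05), and voom called 0 of the 35. The median fold change of the 35 was 0.74 against 0.42 for all genes, 26 lay above the all-gene median, and 12 had an unadjusted p under 0.05, all higher. Groups did not overlap for 13 genes, higher in GABP-KD, against 17.3% of all genes. After median of ratios limma again called 0 of the 35 (0.0388% of all genes were called, all lower), the median was 0.24 against 0.00, and 3 genes were higher and 1 was lower at an unadjusted p under 0.05 (836 of all 12897 genes were below it). Groups then did not overlap for 3 genes higher (4.63% of all genes) and 1 lower (5.67%).

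Psmb8 had the largest change with the libraries labelled GABP-KD. It had 3.82, 2.24 and 1.39 FPKM in GABP-KD, against 0.611, 0.192 and 0.385 FPKM in db/db-veh. All 3 GABP-KD values were above all 3 of db/db-veh, as deposited and after scaling. The change was 1.68 (SE 0.32, limma adjusted p = 0.19), and 1.36 (SE 0.23, adjusted p = 0.081) after median of ratios, with adjusted p between 0.064 and 0.59 over 36 settings. Psmb8 was measured with exons that overlap an opposite-strand gene over 498 bases. Gbp2 had 3.15, 2.55 and 2.37 FPKM in GABP-KD, against 0.879, 0.825 and 0.103 FPKM in db/db-veh, again with no overlap on either scale (1.62, limma adjusted p = 0.23, and 1.23 after scaling). Bst2 had 30.0, 6.71 and 10.6 FPKM in GABP-KD, against 2.78, 3.45 and 6.92 FPKM in db/db-veh. The db/db-veh 3 value exceeded GABP-KD 2, so the groups overlapped (1.55, limma adjusted p = 0.34, and 0.99 after scaling). Oasl1 had 9.12, 0.536 and 0.545 FPKM in GABP-KD, against 0.226, 0.149 and 1.20 FPKM in db/db-veh. Its high mean rested on GABP-KD 1, since the change was 1.23 with that library and 0.16 without it (0.87 and 0.066 after scaling).

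The 4 genes called with GABP-OE did not pass here. Isg15 had 1.52, 3.81 and 3.24 FPKM in GABP-KD, against 1.05, 1.29 and 0.741 FPKM in db/db-veh (1.08, limma adjusted p = 0.34). Gbp3 had 2.65, 3.50 and 3.01 FPKM against 3.30, 1.55 and 0.997 (0.64), Gbp7 had 0.780, 0.664 and 0.912 against 0.735, 0.370 and 0.0928 (0.57), and Iigp1 had 2.18, 2.72 and 3.52 against 1.80, 0.869 and 0.783 (1.03), each with GABP-KD before db/db-veh. After scaling the changes of Isg15, Gbp3, Gbp7 and Iigp1 were 0.66, 0.17, 0.30 and 0.61. Isg15 and Iigp1 did not overlap between the groups as deposited, and both overlapped after scaling. Irf7 was at 1.16 (limma adjusted p = 0.34), or 0.73 after scaling. After scaling 4 of the 35 had changes below 0, Herc6 (-0.28), Trim25 (-0.16), Zbp1 (-0.34) and Rsad2, the 1 of them with an unadjusted p under 0.05. Rsad2 had 1.99, 1.13 and 1.90 FPKM as deposited in GABP-KD against 2.28, 1.26 and 1.86 FPKM in db/db-veh, with changes of -0.08 as deposited and -0.55 (adjusted p = 0.76) after median of ratios. Igtp had 8.84, 4.90 and 5.77 FPKM in GABP-KD, against 4.81, 2.89 and 3.22 FPKM in db/db-veh (0.75, limma adjusted p = 0.35, and 0.20 after scaling). Stat2 and Irf9 came to 0.01 and 0.13 after scaling.

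Library GABP-KD 1 carried a pattern of its own within the set. After median of ratios it had the lowest value of its group for 25 of the 35 genes and the highest for 7, namely Trim25, Irf1, Oasl1, Bst2, Irgm1, Tap1 and Ifih1. It was the lowest of all 12 libraries for 8 genes, Isg15, Usp18, Oas1a, Oasl2, Dhx58, Zbp1, Ifi44 and Xaf1, and the highest of all 12 for 6. Scaled Oasl2 was 0.217 in GABP-KD 1, where the other 2 libraries had 1.53 and 2.41, and scaled Oasl1 was 5.32 in it, where they had 0.594 and 0.603. Zbp1 was listed at 0 in it. Without this library the median fold change of the 35 against db/db-veh was 0.58 (all genes 0.22), and 0.40 (all genes 0.02) after scaling, with 0 calls on either scale.

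The comparisons share groups (db/m-veh stands in the GABP-OE and vehicle comparisons, db/db-veh in the GABP-KD and vehicle ones), whereas the GABP-OE and GABP-KD comparisons share none, and their fold changes were set against each other in the fit. Limma called 0 of the 35 genes (0.132% of all genes were called), and 3 of the 35 and 702 of all 12897 genes had an unadjusted p under 0.05 (the 3 were Oas2, Rsad2 and Gbp3, all with the larger change under GABP-OE), and voom called 0. The median difference was 0.30, against -0.05 for all genes, and 0.35 against 0.05 after median of ratios, where limma called 0 of the 35 (0.0775% of all genes) with 2 higher and 1 lower at an unadjusted p under 0.05, as were 886 of all 12897 genes in either direction. For Rsad2 the difference was 1.12 (SE 0.43, limma adjusted p = 0.69), and 1.24 (SE 0.35, adjusted p = 0.39) after scaling. For Psmb8 it was -0.82 (SE 0.45, limma adjusted p = 1.00), and -0.83 after scaling. Psmb8, Gbp2, Bst2, Irgm1, Ifih1, Oasl1 and Ifi35 were the 7 genes with a difference below 0.

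Between diabetic and lean kidneys under vehicle no interferon-stimulated gene passed the test. Limma called 0 of the 35 (0.0930% of all genes were called), and 0 after median of ratios (0.171%), with 3 lower at an unadjusted p under 0.05 as deposited and 2 higher after scaling, and voom called 0. Of all 12897 genes, 1489 were under that p as deposited and 1546 after scaling, in either direction. The median fold change was -0.30 against -0.24 for all genes, and -0.06 against 0.01 after scaling, with 16 of 35 and 14 of 35 genes above the all-gene median. Groups did not overlap for 5 genes, lower in db/db-veh, against 14.4% of all genes, and after scaling for 3 higher (8.3%) and 4 lower (9.03%). Isg15 had 1.05, 1.29 and 0.741 FPKM in db/db-veh, against 2.64, 2.50 and 3.20 FPKM in db/m-veh, with no overlap on either scale (-1.11, SE 0.38, limma adjusted p = 0.27, and -0.84 after scaling). Ifi35 had 2.05, 0.601 and 1.73 FPKM in db/db-veh, against 3.04, 2.80 and 3.66 FPKM in db/m-veh (-0.99, limma adjusted p = 0.33, and -0.74 after scaling). In the other direction, Rsad2 had 2.28, 1.26 and 1.86 FPKM in db/db-veh, against 1.46, 1.02 and 0.914 FPKM in db/m-veh (0.49, limma adjusted p = 0.58, and 0.79 with adjusted p = 0.23 and no overlap after scaling). Ifit2 had 2.37, 2.38 and 0.862 FPKM in db/db-veh, against 0.835, 1.31 and 1.45 FPKM in db/m-veh (0.42, limma adjusted p = 0.70, and 0.74 after scaling). The set thus held values on both sides in the vehicle groups, Isg15, Usp18 and Psmb8 on the lower one and Stat2, Rsad2 and Ifit2 on the upper one after scaling.

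Other genes of the pathway were read from a list of 104 rows of the table, of which 90 passed the filter. With GABP-OE 8 of the 90 were called higher and 0 lower as deposited, and 0 after median of ratios, where 1.85% of all genes were called higher as deposited and 0.209% were called after scaling. The median was 0.83 against 0.38 for all genes, and 0.45 against 0.04 after scaling. The 8 were the chemokines Cxcl9 and Cxcl10, which draw activated T cells, the class II and class I transactivators Ciita and Nlrc5, the immunity-related GTPases Ifi47 and Tgtp2, and Epsti1 and Ifi27l2a. Cxcl9 had 2.06, 3.49 and 4.17 FPKM in GABP-OE, against 0.979, 0.195 and 0.213 FPKM in db/m-veh (2.01, SE 0.34, limma adjusted p = 0.0075, and 1.67 with adjusted p = 0.11 after scaling). Cxcl10 had 3.20, 4.76 and 4.08 FPKM in GABP-OE, against 1.26, 0.195 and 0.523 FPKM in db/m-veh (2.05, SE 0.40, limma adjusted p = 0.014, and 1.70 with adjusted p = 0.081 after scaling). Both chemokines were separate between the groups, with less than 1.3 FPKM in every db/m-veh library. Ifi27l2a had the largest change, 2.23 (limma adjusted p = 0.038), or 1.81 (adjusted p = 0.38) after scaling, with 20.7 ± 4.70 FPKM in GABP-OE and 4.18 ± 1.83 FPKM in db/m-veh (SD, n = 3 each). Epsti1, Ciita, Nlrc5, Ifi47 and Tgtp2 rose by 1.82, 1.10, 1.35, 1.31 and 1.35, with 1.44, 0.84, 1.06, 0.94 and 1.02 after scaling. Epsti1 and Ciita stood at 0.598 ± 0.253 and 0.282 ± 0.0309 FPKM in GABP-KD, against 0.505 ± 0.111 and 0.126 ± 0.0805 FPKM in db/db-veh, and limma called 0 of the 90 genes there, between the vehicle groups or in the difference of effects, where the lowest adjusted p was 0.29, 0.24 and 0.31.

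Of 9 ligand genes on the list, 7 interferon genes had at most 0.556 FPKM in any library, and 2 other cytokines passed the filter, as did all 6 receptors. Ifnb1, Ifna4, Ifne and Ifnl3 were listed at 0 in all 12 libraries. Ifng had 0.171 FPKM in GABP-OE 1 and 0.318 FPKM in GABP-OE 2, 6 fragments in all, and was listed at 0 in the other 10 libraries. Il18, a cytokine that promotes interferon-gamma production, had 1.61, 3.00 and 2.15 FPKM in GABP-OE, against 0.636, 0 and 0.831 FPKM in db/m-veh. The groups did not overlap, and the change of 1.56 missed the threshold narrowly (limma adjusted p = 0.054, and 1.28 with adjusted p = 0.32 after scaling). Il15, a growth factor of T and NK cells, had 7.69, 6.65 and 4.38 FPKM in GABP-OE, against 3.82, 3.89 and 4.12 FPKM in db/m-veh (0.57, limma adjusted p = 0.51, and 0.17 after scaling). In GABP-KD against db/db-veh the changes were -0.03 for Il18 and -0.16 for Il15. Of the 6 receptor genes, Ifnar1 had 6.08 ± 0.793 FPKM in GABP-OE and 3.24 ± 0.897 FPKM in db/m-veh (SD, n = 3 each), Ifnar2 had 4.45 ± 0.751 and 1.96 ± 0.378, Ifngr1 had 10.8 ± 3.49 and 5.45 ± 2.60, Ifngr2 had 4.54 ± 0.887 and 2.94 ± 0.776, Ifnlr1 had 0.736 ± 0.228 and 0.234 ± 0.112, and Il10rb had 8.93 ± 1.27 and 4.80 ± 2.12, each in the same group order. Their changes ran from 0.56 to 1.01, or 0.17 to 0.62 after scaling, and 0 of the 6 passed.

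Markers of immune cells were higher in GABP-OE too. With GABP-OE 3 of 9 tested macrophage markers (C1qa, C1qc and Mrc1), 3 of 6 T and NK cell markers (Cd2, Cd3g and Cd4), 2 of 5 dendritic cell markers (Cd209a and Itgax), 3 of 5 general leukocyte markers (Cd52, Laptm5 and Ptprc) and 1 of 3 B cell markers (Jchain) were called higher, where 1.85% of all genes were. After median of ratios Cd4, Cd209a and Itgax still were, where 0.209% of all genes were called in either direction. Like Cd2, Cd3g and Ptprc, they passed the filter on low values only through the GABP-OE libraries. The calls of these genes therefore add nothing to their being high in that group. Summed macrophage markers after scaling ran from 106 to 183 FPKM in GABP-OE, 28.2 to 98.1 in GABP-KD, 27.2 to 30.8 in db/db-veh and 29.1 to 43.6 in db/m-veh. Within GABP-KD the lowest of these, 28.2, was library 1, which was also the lowest of that group for 25 of the 35 interferon-stimulated genes. The macrophage list was split in that library. As deposited, Cd68 (11.3, 4.17 and 3.39 FPKM in GABP-KD) and Cd14 (30.4, 4.64 and 3.12 FPKM) were highest in library 1 of the group. The other macrophage markers, such as Lyz2 (1.80, 31.1 and 52.4 FPKM), were lowest in it. Summed leukocyte markers ran from 25.4 to 41.3 FPKM in GABP-OE, 7.55 to 14.8 in GABP-KD, 4.91 to 9.05 in db/db-veh and 6.28 to 12.2 in db/m-veh. For T and NK cells the sums were 5.67 to 8.65, 0.226 to 2.74, 0.638 to 0.983 and 1.19 to 4.14 FPKM, for dendritic cells 6.71 to 8.47, 0.912 to 2.41, 1.26 to 2.02 and 1.94 to 3.83 FPKM, and for B cells 28.5 to 51.1, 0.453 to 2.54, 0.975 to 12.9 and 2.50 to 6.75 FPKM in the same group order. Jchain made up most of the B cell sum in each GABP-OE library. Of the other tested B cell markers, Cd79a was at 1.42 with GABP-OE, or 1.08 after scaling. Cd79b went the other way, at -0.11, or -0.26 after scaling, and neither was called. The GABP-OE sums were above those of every other library for each of these 5 lists, and for B cells this rested largely on Jchain.

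Neutrophil markers did not follow that order, with 1.73 to 2.67 FPKM in GABP-OE, 6.73 to 21.0 in GABP-KD, 2.07 to 13.5 in db/db-veh and 1.87 to 5.48 in db/m-veh, and 0 of 4 tested were called. Endothelial markers, none of 8 called, ran from 114 to 165 FPKM in GABP-OE and 93.9 to 108 FPKM in db/m-veh. They ran from 73.2 to 107 FPKM in GABP-KD and 68.0 to 89.7 FPKM in db/db-veh. The GABP-OE sums were thus above every other library for this list too. Defining markers listed at 0 in a whole group included Ncr1, Gzma, Klrb1c, S100a8 and Ly6g in GABP-OE, Gzma, Ms4a1, Siglech, Xcr1 and Cd209a in GABP-KD, Ncr1, Nkg7, Gzma, Cd209a and Ly6g in db/db-veh, and Ncr1, Klrb1c and Ly6g in db/m-veh. Among fat cell markers Cfd was called higher in GABP-OE, and the summed list ran from 5.33 to 14.7 FPKM there and 0.107 to 1.04 FPKM in db/m-veh. Proximal tubule markers, which define most of the tissue, were present in every library at 337 to 1740 FPKM in sum, and 0 of 7 were called with GABP-OE. The part of the immune cell markers in the changes of the interferon-stimulated genes was not tested.

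**Figure D4:**
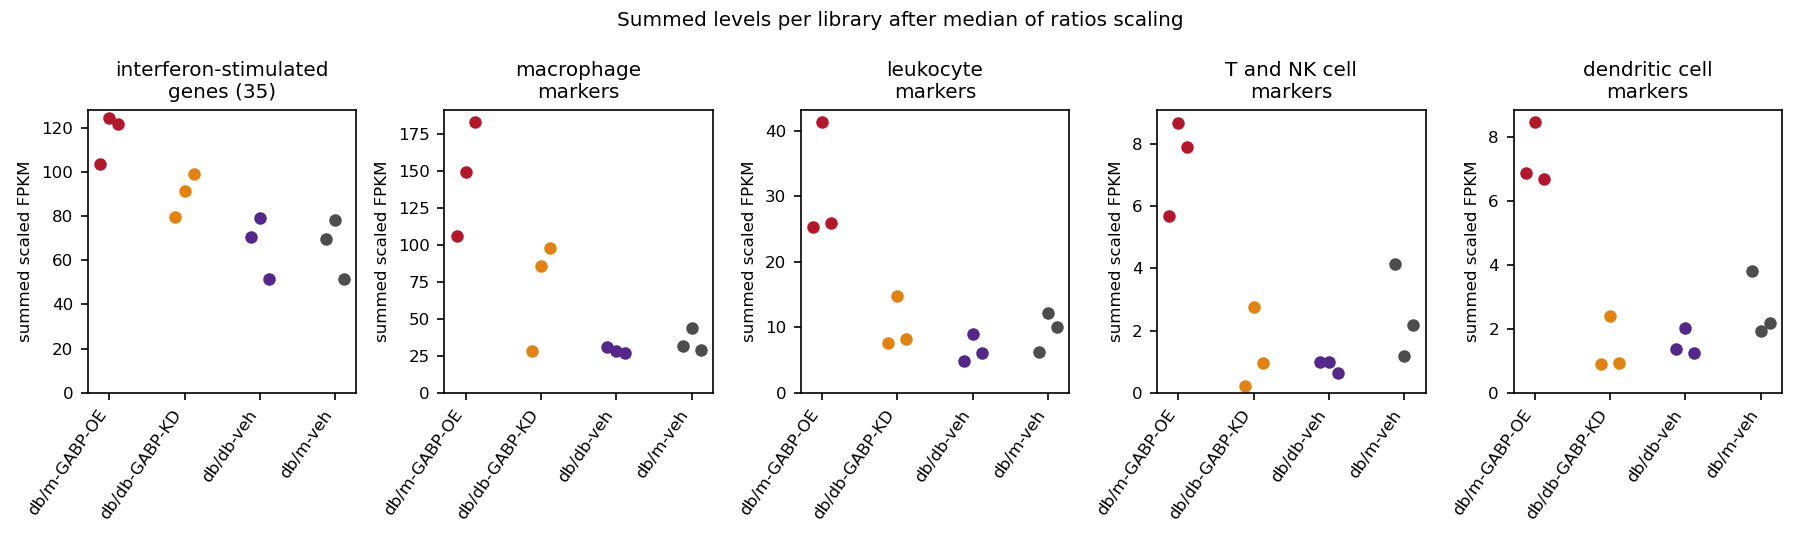
Summed FPKM after median of ratios scaling per library (dots) of the 35 interferon-stimulated genes and of 4 immune marker lists, for GABP-OE, GABP-KD, db/db-veh and db/m-veh from left to right, with axes from 0. The GABP-OE dots are the highest in all 5 panels, and 2 of the 3 GABP-KD dots of the macrophage panel lie above those of both vehicle groups. Limma called 0 of 9 tested macrophage markers in GABP-KD against db/db-veh on either scale. Among them Csf1r alone had a change below 0 (-0.47, or -0.93 after scaling).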

How the data were processed

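Poly(A) RNA of mouse kidney was sequenced in 12 paired-end libraries, per the labels' protocols. The authors deposited FPKM, 1 value per gene and library. The submitters' processing notes name HTSeq and GRCm39 without versions. The sources used here do not state the aligner, the annotation or the strand setting. Exon lengths of GENCODE M21 (GRCm38) turned FPKM into whole fragments for 97.2% of genes (within 0.05 of a fragment of a whole number), and coordinates are given in GRCm38, and their match to the build of the notes was not settled. The recovered fragments give the depths. Intervals cover the spread between libraries and assume independent ones.

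The test was limma 3.58.1 (R 4.3.3) on log2(FPKM + 0.5), which understates changes of low genes, with 12 libraries in 1 fit, a variance trend, two-sided tests and Benjamini-Hochberg adjustment over 12897 genes (adjusted p under 0.05). Alternatives were median of ratios scaling, equal nuclear FPKM sums, pseudocounts 0.1 and 1, no filter, a filter at FPKM 1, no trend, fits of 2 groups, the replicate number as a block, and each library left out with and without scaling. Added after seeing the data was voom on the recovered fragments. The fit was run on simulated libraries, drawn independently with chosen genes raised in GABP-OE. That run held no shared animals and no all-gene shift, so it cannot check the calls against either. Python 3.11.15 with pandas 2.3.3, numpy 2.4.6 and matplotlib 3.10.9 did the rest.

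The gene set, pathway and marker lists were chosen with earlier results of these data known. Values in every library are given for members called in any comparison, the 6 with the highest mean FPKM, the most abundant of each role group, and the 4 farthest from the all-gene median in each comparison (mean of at least 1 FPKM in the higher group); from the pathway list, values are given for the receptors and the called genes, and another gene that the rule names is not reported here. Irf7, and other members given outside these rules, were named after their values were seen. Rsad2 met the rules through the vehicle comparison only. Ifit, Oas, Gbp and Irg genes have near relatives, and the authors' counting may split reads among them. Isg15 and Irf1 did not give whole fragments in every library. Of the 37 symbols 2 had no row and were not analysed here.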

Additional observations from a re-analysis of the deposited data

How the results depend on the processing

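With GABP-OE the count of interferon-stimulated genes called was 4 as deposited. It was 0 with median of ratios, with equal nuclear FPKM sums, with the replicate block plus median of ratios and with voom plus median of ratios, 2 with pseudocount 0.1, with no filter, with no trend and with voom, and 13 in the fit of 2 groups. Their median fold change of 0.94 became 0.60, 0.49, 0.60 and 1.20 with median of ratios, equal sums, block plus median of ratios and pseudocount 0.1, and 1.29 with voom. For GABP-KD it was 0.24, 0.14 and 0.24 under the first 3 of these and 0.21 with voom plus median of ratios. For the vehicle groups it was -0.058, 0.12 and -0.058 under the same 3, and -0.57 with voom.

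All genes called with GABP-OE, 245 as deposited, numbered 27 (median of ratios), 62 (pseudocount 0.1), 159 (filter at FPKM 1), 15 (equal sums), 123 (no trend), 17 (block plus median of ratios), 590 (2 groups), 66 (voom) and 7 (voom plus median of ratios). For GABP-KD, 0 as deposited, they numbered 5, 1 (no filter), 6 (equal sums), 4 (block plus median of ratios) and 5 (voom plus median of ratios). For the vehicle groups, 12 as deposited, they numbered 22, 2 (no filter), 35 (equal sums), 19 (2 groups), 5 (voom) and 3 (voom plus median of ratios). For the difference, 17 as deposited, they numbered 10, 7 (no filter), 7 (equal sums), 6 (no trend), 11 (replicate block), 5 (block plus median of ratios), 2 (voom) and 4 (voom plus median of ratios).

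Leaving out 1 library at a time gave 0 to 12 members called with GABP-OE, and 0 after scaling. Member medians ran from 0.88 to 1.12 (0.47 to 0.72 scaled) for GABP-OE, 0.51 to 0.92 (0.061 to 0.40) for GABP-KD, -0.50 to -0.14 (-0.20 to 0.16) for the vehicle groups and 0.063 to 0.46 (0.17 to 0.54) for the difference. All genes called ran from 31 to 559 (6 to 77), 0 to 4 (0 to 11), 2 to 48 (4 to 53) and 1 to 40 (0 to 46). No fold change that was called or among the 4 largest of its comparison changed sign, whereas those of Oasl1, Ifih1 and Ifi35 with GABP-OE were above 0 as deposited and below 0 with median of ratios. The replicate numbers were not treated as pairs in the main fit. Same-numbered deviations from the group means correlated at -0.48 to 0.38, and at 0.07, 0.38 and 0.12 between the vehicle groups. With 3 libraries a group, whose deviations sum to 0, these values cannot settle whether the numbers pair the libraries. With the replicate block 5 members were called with GABP-OE. The cause of these shifts was not tested.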

Other observations

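Markers of the other kidney cell types were also summed after median of ratios scaling. Thick ascending limb markers ran from 113 to 122 FPKM in GABP-OE, 17.7 to 35.6 in GABP-KD, 67.5 to 117 in db/db-veh and 62.4 to 108 in db/m-veh, so that the 3 libraries labelled GABP-KD were below every other library. Of this list Slc12a1, the sodium-potassium-chloride transporter of that segment, had 19.0, 9.83 and 17.9 FPKM in GABP-KD, against 89.2, 27.6 and 48.8 FPKM in db/db-veh. Limma called it lower after median of ratios (-2.29, adjusted p = 0.023) and not as deposited (-1.69, adjusted p = 0.34). Its GABP-OE effect minus its GABP-KD effect also passed after scaling (2.83, adjusted p = 0.039), and not as deposited (2.67, adjusted p = 0.19). Slc12a1 made up most of the summed list in each group. In GABP-KD against db/db-veh, Umod of this list was at -0.04 and Cldn16 at 0.17, or -0.61 and -0.32 after scaling. Neither was called on either scale. Distal convoluted tubule markers ran from 34.7 to 67.8, 30.4 to 62.9, 60.7 to 85.5 and 27.0 to 95.02 FPKM in the same group order. Collecting duct markers ran from 40.7 to 67.7, 40.2 to 200, 36.2 to 94.6 and 64.6 to 191 FPKM, and podocyte markers from 11.6 to 15.9, 11.1 to 19.3, 6.59 to 10.6 and 8.35 to 26.8 FPKM. Red blood cell markers ran from 230 to 710, 37.0 to 155, 254 to 410 and 536 to 1438 FPKM, and fat cell markers reached 17.4 FPKM in a db/db-veh library and 1.40 in GABP-KD. Of the other ligands on the pathway list, Ifna2 had 1 fragment in GABP-KD and Ifnl2 had 3 fragments in db/db-veh.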
